A study of Camelina sativa with 159 samples.

Results

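CN 113662 is an accession of Camelina sativa that the labels place at 52 days to 50% flowering, between the early accessions of the collection and the later ones. It was chosen by its genotype label, which 3 of the 159 libraries of the series carry: Cs035, Cs040 and Cs147. They were set against the 51 libraries with a code of the same Cs series, and a total of at least 200000 counts, that carry the labels of 34 accessions flowering before 48 days (43 to 47.9 days, median 45.6 days over these libraries). The 8 libraries of the other late accessions, CN 113692 (55 days), CN 113691 (59.4 days) and CN 113660 (61.9 days), served as a second point of reference. All of them hold RNA from leaf tissue of young greenhouse seedlings, with no treatment and no transgene in any group. The study behind the series asked which genes go with flowering time (FT) among 48 accessions. CN 113662 is 1 accession, and the labels do not say whether its libraries came from separate plants. The p-values below measure the spread between the libraries compared, most of which are early ones. The spread among the 3 libraries of CN 113662 may be technical.

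C. sativa is a polyploid oilseed, so that many genes are present as several similar copies, and a copy may be silent in one accession and active in another. In its relative Arabidopsis, leaves integrate day length, age, cold and hormones into a few floral integrators. One of them is the MADS-box transcription factor SOC1, which promotes flowering and is held down by repressors in plants that are not yet competent to flower.

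The 3 libraries were compared with each other before anything else, since gene models that are silent in an accession would be silent in each of its libraries. A gene model was scored as present at 5 or more CPM (normalized counts per 1000000 counts) and as absent at a count of 0, over 351 gene models that were present in at least 10% and absent in at least 10% of the deeper Cs libraries, and over 134 libraries of 2000000 counts or more. Cs035 and Cs147 were in opposite states at 15 of 159 scored gene models, or 9.43% (5.38 to 15.1%, exact Clopper-Pearson interval, counting error only). Cs040 differed from Cs035 at 23.6% (34 gene models, 16.9 to 31.4%) and from Cs147 at 36 of 142 (25.4%, 18.4 to 33.3%). By this score Cs040 stood apart from the other libraries of its label. Over the levels of the gene models tested below the order was another one, with a root mean square log2 difference of 0.675 between Cs040 and Cs147, 0.744 between Cs035 and Cs040 and 0.765 between Cs035 and Cs147, so that there Cs035 lay farthest from the others. All 3 values were above those of the 6 pairs within the other late accessions (0.466 to 0.591). They lay inside the range of 18 pairs within early accessions (0.393 to 0.925, median 0.517).

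The library nearest to Cs040 was Cs053, which is labelled CN 113672, an early accession (46.3 days). They were in opposite states at 6 of 154 gene models (3.9%, 1.44 to 8.29%). The library nearest to both Cs035 and Cs147 was S001C2D, from another code series and also labelled CN 113672, with 16 of 177 gene models in opposite states to Cs035 (9.04%, 5.26 to 14.3%) and 10 of 187 to Cs147 (5.35%, 2.59 to 9.61%). S001C2D differed from Cs040 at 50 of 160 (31.2%, 24.2 to 39%). The other deep library labelled CN 113672, S001C24, was farther off, at 14.2% from Cs040, 21.6% from Cs147 and 25.6% from Cs035. By these shares, nearest libraries thus crossed the labels CN 113662 and CN 113672 for all 3 libraries. For Cs035, however, S001C2D was hardly nearer than Cs147 (9.43%, 5.38 to 15.1%). For Cs147, the interval to S001C2D overlapped the one to Cs035. The same nearest libraries came out with 1008 gene models scored from 2 CPM, and with 108 gene models present and absent in at least 20% of libraries.

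Such closeness across labels was uncommon but not confined to these accessions. Of 8784 pairs of libraries with different labels, 42 differed at a lower share than Cs035 and Cs147 did, and the median was 35%. Pairs that share a label, CN 113662 left out, had a median of 4.94% and a maximum of 46.6%, and the 6 pairs within a single other late accession reached 2.78% at most. Why nearest libraries cross the labels was not tested. Below, levels are given for the 3 libraries apart, and the counts of calls and the main tests are also given without Cs040.

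**Figure D1:**
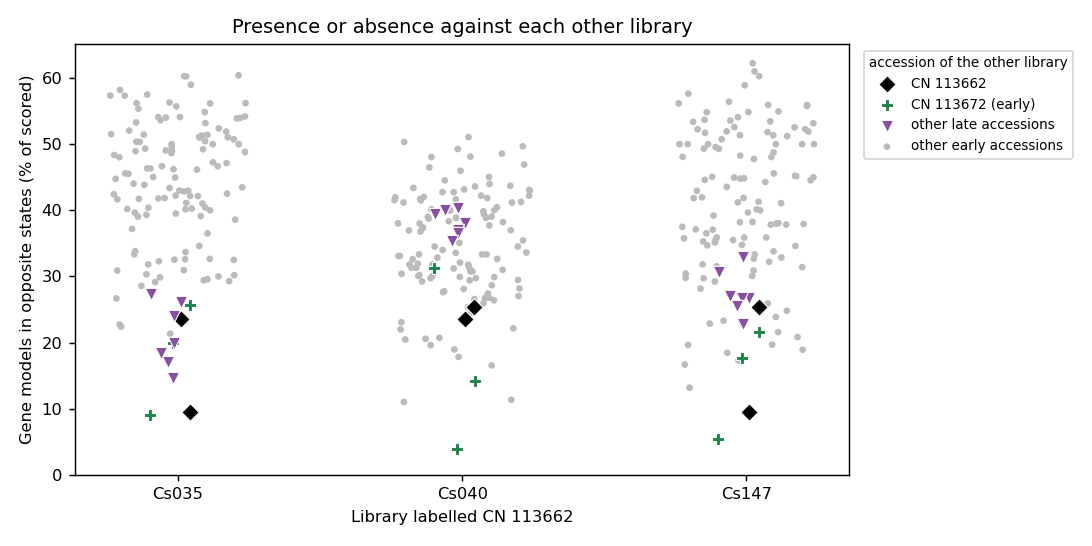
Share of scored gene models that were present in one library and absent in the other (y axis, %), for each library labelled CN 113662 (x axis) against each of the other deep libraries, 1 point per library, coloured by its label. The lowest point of Cs040 is an early library labelled CN 113672 (3.9%), and its own label's libraries lie at 23.6 and 25.4%.

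Single gene models were silent in different libraries of the 3. Csa07g059950.1 had 29.5 CPM in Cs035, 20.1 CPM in Cs147 and no count in Cs040, while the early libraries ranged from 0 to 40.5 CPM with a median of 28.5. Csa11g055230.1 had 27.6 CPM in Cs040, 19.6 CPM in Cs147 and no count in Cs035 (early range 0 to 64.4, median 37). Csa15g017400.1 had 37.2 CPM in Cs040 and no count in either of the others. Of the gene models that reached 5 CPM in one of the libraries, 40 had no count in Cs035, 77 had none in Cs040 and 51 had none in Cs147. By pairs, the number was 88 for Cs035 and Cs040, 64 for Cs035 and Cs147 and 54 for Cs040 and Cs147, against 1 to 16 in the 6 pairs within the other late accessions and 0 to 220 (median 20.5) in 18 pairs within early accessions. A count of 0 allows up to 3 counts, which is 0.876 CPM in Cs035. These gene models were chosen after their values had been seen.

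The totals were 3314746 counts in Cs035, 3667169 in Cs040 and 6792413 in Cs147, inside the range of the early libraries (444464 to 15246389, median 4622563). Of the other late libraries, Cs008 (CN 113692) had 646716 counts, so that 1 count is 1.42 CPM there. Each of the 3 libraries detected between 54251 and 58091 of 94495 gene models. The leaf label was checked with a gene model for a chlorophyll a/b-binding protein of photosystem II, Csa06g036860.1, which stood at 1508, 2555 and 1492 CPM in Cs035, Cs040 and Cs147 (early range 363 to 2888), and its groups overlapped. A second leaf marker, phytoene desaturase (Csa11g040110.1), stood at 38.3, 51.9 and 38.7 CPM (early range 42.2 to 79.5). Cs035 and Cs147 were thus under its early range, and it was called lower (edgeR adjusted p = 0.0273). Library codes also bear on the comparison. Cs035 and Cs040 have lower code numbers than any early Cs library, Cs147 lies among the highest, and only 8 early libraries of 7 accessions have codes up to Cs053 or from Cs146. What the code number stands for is not stated, and its part in the results was not tested beyond fits against those 8 libraries alone.

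Cs035 lay farthest from the early accessions. Of 45823 gene models tested, it was above the highest early library at 2855 and below the lowest at 2737. Cs040 was above at 1082 and below at 1172, and Cs147 above at 1245 and below at 700. The same counts for each early library against the other early libraries had medians of 645 above and 463 below, with highest values of 4834 and 8968. The value of 8968 is that of Cs143, which had too few counts to be scored for presence and absence. Cs035 therefore exceeded most early libraries in both directions, and Cs040 and Cs147 lay among the 8 early libraries of near codes, which were above at 487 to 1880 and below at up to 1222.

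**Figure D2:**
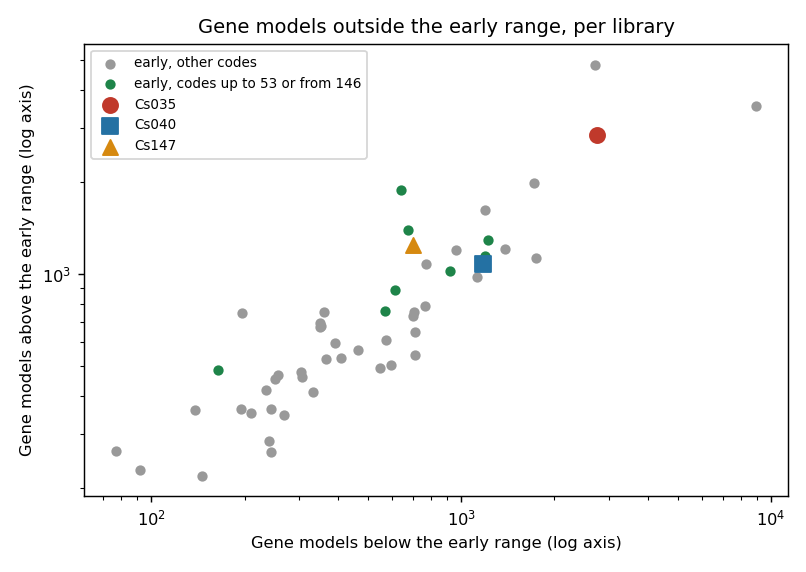
Number of gene models below (x axis, log scale) and above (y axis, log scale) the range of the early libraries, 1 point per library, each early library being set against the other early libraries. Cs035 (2737 below, 2855 above) stands with the few most deviant early libraries, and Cs040 and Cs147 stand with the early libraries of near codes in green. The early library with the most gene models below, Cs143 (8968), had too few counts to be scored for presence and absence.

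Most of these gene models were outside in a single library. Only Cs035 was above at 2169 and below at 2097 gene models, only Cs040 at 547 and 785, and only Cs147 at 845 and 326. Cs035 and Cs147 were both above at 306 and both below at 336. All 3 libraries were above the early range at 76 gene models and below it at 43.

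With the 3 libraries as replicates, edgeR called 3290 gene models higher in CN 113662 (7.18% of those tested) and 2421 lower (5.28%), at a Benjamini-Hochberg adjusted p under 0.05. With Cs053 left out of the early libraries the counts were 3713 and 2716. Without Cs040 they were 2208 higher and 1314 lower, and without Cs147 they were 2350 and 1495. Without Cs035 they were 636 and 151, so that this library carried most of the calls. Against the 8 early libraries of near codes, 93 gene models were higher (0.203%) and 10 lower (0.0218%), and of these calls 71 higher and 8 lower ones were also called against all early libraries. The 8 include Cs053, the library nearest to Cs040 by presence and absence, and they were not fitted without it. With limma's voom and accession as a random block, 2377 were higher and 445 lower. The fit to counts summed per accession, in which CN 113662 is a single sample, called 50 higher and 10 lower.

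**Figure D3:**
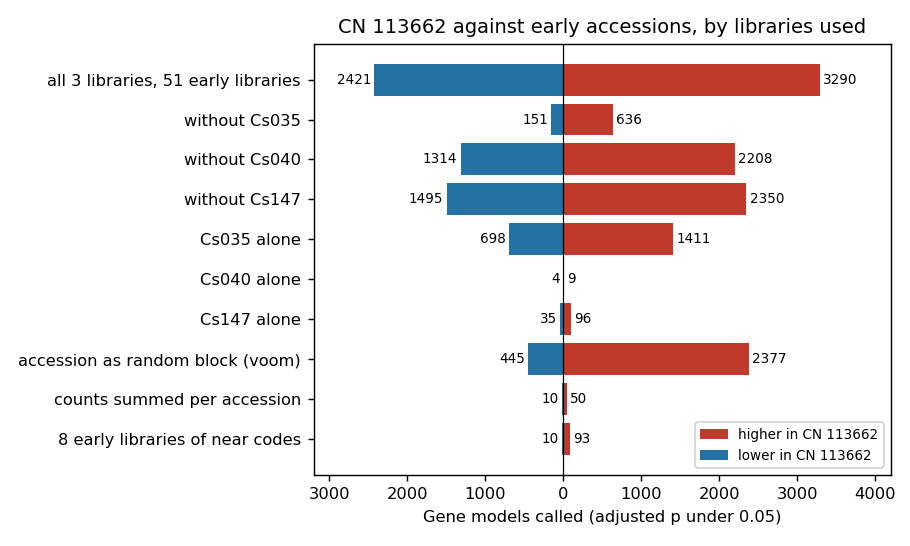
Gene models called higher (red, right) and lower (blue, left) in CN 113662 than in the early accessions at an adjusted p under 0.05, for different choices of libraries and fits (1 bar pair per choice, x axis is the number of gene models). The counts fall from 3290 and 2421 to 636 and 151 without Cs035, and to 93 and 10 against 8 early libraries of near codes.

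The 76 gene models above the early range in all 3 libraries (0.166% of those tested) and the 43 below it (0.0938%) were all called, and the range was used to choose them. Without Cs035, edgeR still called 59 of the 76 and 22 of the 43. Against the 8 early libraries of near codes it called 1 of them. Those described next carry no name in the sources used here and are given by identifier, in which the digits after Csa are the chromosome.

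Csa20g048520.1 had the largest increase among those with a mean of 5 CPM or more. It stood at 34.2 CPM in Cs035, 7.38 in Cs040 and 7.33 in Cs147, with the early libraries between 0 and 5.73 (median 0.548). Its log2 fold change was 4.09 (SE 0.45, edgeR adjusted p = 1.12e-08), 2.97 without Cs035 (edgeR adjusted p = 0.00569) and 4.44 without Cs040 (edgeR adjusted p = 2.48e-08), and it was the gene model still called against early libraries of near codes (3.40, edgeR adjusted p = 0.0362). Cs035 was high here, and Cs040 and Cs147 lay close above the early maximum and within the range of the other late libraries (0.591 to 7.9 CPM).

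Csa11g022760.1 was more even, at 8.47, 7.66 and 6.3 CPM in Cs035, Cs040 and Cs147 against 0 to 5.52 in the early libraries (median 0.678) and 0 to 3.27 in the other late ones. This gave a log2 fold change of 2.83 (SE 0.48, edgeR adjusted p = 6.88e-05). Of the 10 gene models with the largest increases, it, Csa07g030200.1, Csa10g027210.1, Csa02g005550.1, Csa10g020000.1 and Csa09g034210.1 were also above every other late library in all 3 libraries of CN 113662. Csa09g064590.1 had the highest level of the 10, with 139, 151 and 163.7 CPM in Cs035, Cs040 and Cs147. Its early libraries ran from 4.69 to 138 CPM (median 16.6), but those of near codes had a median of 102, and the other late libraries reached 159. This was a log2 fold change of 2.37 (SE 0.55, edgeR adjusted p = 0.00283) against all early libraries and 0.59 (edgeR adjusted p = 0.468) against those of near codes. The same held for Csa07g030200.1, which had 35.9, 31.7 and 31.5 CPM in the 3 libraries, medians of 1.27 CPM in all early libraries and 16.4 CPM in those of near codes, and log2 fold changes of 3.07 (SE 0.71, edgeR adjusted p = 0.00253) and 0.96 (edgeR adjusted p = 0.33).

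Among the gene models that fell, Csa03g053280.1 had 0.584, 1.37 and 0.879 CPM in Cs035, Cs040 and Cs147 against 1.58 to 9.42 CPM in the early libraries (median 4.57). This was a log2 fold change of -2.41 (SE 0.51, edgeR adjusted p = 9.97e-04), and it did not pass with accession as a random block (voom adjusted p = 0.114). Csa04g039260.1 had 18.4, 13.4 and 16.3 CPM against 23.3 to 113 CPM (median 48.7), with a log2 fold change of -1.64 (SE 0.34, edgeR adjusted p = 8.03e-04). In both, the 3 libraries lay close together and under every early library. Csa10g047510.1 differed from this, with 1.46 CPM in Cs035 but 21.1 in Cs040 and 13.3 in Cs147, against an early minimum of 21.5 (median 34.8). Here the log2 fold change was -1.55 (SE 0.26, edgeR adjusted p = 5.23e-05), and in the other late libraries it ran from 1.36 to 45 CPM. The other 7 of the 10 largest decreases had log2 fold changes from -1.97 to -1.51. Of these 20 gene models, edgeR still called 18 without Cs035, 19 without Cs040 and 1 against early libraries of near codes, and voom with accession as a random block called 16.

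The flowering genes were examined as a list of 13 gene models that the study's text names by gene. Those of SOC1, AGL19, AGL103, SDG16, SNZ and SPL15 belong to tan, a group of co-expressed gene models described below. The study chose tan on these libraries for its relation to FT. Lower levels of its members in a late accession are thus not independent evidence. Of the 12 flowering gene models tested, edgeR called 3 lower in CN 113662 and 0 higher, where it called 5.28% of all gene models tested lower and 7.18% higher. DESeq2 called 3 lower and 0 higher, against 2134 lower and 3404 higher over all gene models. At an unadjusted p under 0.05 in edgeR, 5 were lower and 0 higher. Here and below, no share over all gene models is given at an unadjusted p, so such counts have no background. In the voom fit with accession as a random block 1 member was lower. The median log2 fold change of the list was -0.39 against -0.05 over all gene models tested. Without Cs040 edgeR called 2 members lower. Without Cs035, and against the 8 early libraries of near codes, it called 0, and in each of these fits 3 were lower at an unadjusted p under 0.05.

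SOC1 on chromosome 4, Csa04g063650.1, had 0.876 CPM in Cs035, 8.2 in Cs040 and 5.86 in Cs147. The early libraries ran from 2.37 to 34.2 CPM (median 15.1), and the other late libraries from 0 to 1.56 CPM. Cs035 was under the early range and at the level of the other late accessions, while Cs040 and Cs147 lay inside the early range, in its lower part, and above every other late library. The log2 fold change against the early accessions was -1.66 (SE 0.41, edgeR adjusted p = 0.00434). It was -1.21 (edgeR adjusted p = 0.14) without Cs035, -2.11 (edgeR adjusted p = 0.00586) without Cs040 and -1.29 (edgeR adjusted p = 0.161) against early libraries of near codes, and voom with accession as a random block gave an adjusted p of 0.0929.

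SOC1 on chromosome 6, Csa06g052060.1, was expressed more highly, with 3.21 CPM in Cs035, 15.3 in Cs040 and 13.2 in Cs147 against 13.6 to 57.9 CPM (median 27.9) in the early libraries. Cs035 and Cs147 were under the early range, and Cs040 was inside it near the lower end. Cs035 was also under all 8 other late libraries, which ran from 3.84 to 7.78 CPM. The log2 fold change was -1.38 (SE 0.32, edgeR adjusted p = 0.00273), and it remained called in the voom fit (adjusted p = 0.0194) and without Cs040 (-1.70, edgeR adjusted p = 0.00474) but not without Cs035 (-0.97, edgeR adjusted p = 0.131) or against early libraries of near codes (-1.22, edgeR adjusted p = 0.159).

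AGL19, a MADS-box relative of SOC1 that promotes flowering in Arabidopsis, is present as 2 gene models. Csa10g020140.1 had 2.63 CPM in Cs035, 7.66 in Cs040 and 8.65 in Cs147 against 5 to 15.9 CPM (median 11.4) in the early libraries and 0 to 3.66 in the other late ones. Only Cs035 left the early range, and it fell within that of the other late accessions. The log2 fold change was -0.73 (SE 0.25, edgeR adjusted p = 0.0406), and the call was lost without Cs035 (-0.39, edgeR adjusted p = 0.493), without Cs040 (-0.86, edgeR adjusted p = 0.0673) and in the voom fit (adjusted p = 0.259). The second copy, Csa12g033740.1, was near its detection limit, at 0.292, 1.37 and 2.64 CPM, and inside the early range (0.238 to 4.39 CPM) in all 3 libraries.

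SNZ, an AP2-like repressor of flowering in Arabidopsis, had 0.876, 4.92 and 5.42 CPM of Csa05g014000.1 in Cs035, Cs040 and Cs147 against 1.56 to 17 CPM in the early libraries (median 7.77), with a log2 fold change of -1.04 (SE 0.46, edgeR adjusted p = 0.126). Again Cs035 alone was under the early range. SPL15, a promoter of flowering of the age pathway in Arabidopsis, had 1.17, 1.09 and 0.586 CPM of Csa09g070470.1 against 0.263 to 4.6 CPM (median 1.8), with a log2 fold change of -1.18 (SE 0.50, edgeR adjusted p = 0.107). The 3 copies of SPL4, another gene of that family, lay inside the early range in every library, with log2 fold changes from 0.09 to 0.52. The gene models of SDG16, JMJ19 and SC35, a histone methyltransferase gene, a jumonji-domain gene and a splicing factor gene, also lay inside the early range in all 3 libraries. AGL103, a further MADS-box gene, was too low to be tested, at 0, 1.37 and 0.44 CPM. FLC, the floral repressor of the vernalization pathway in Arabidopsis, is not tied to a gene model in the sources used here, and its copies were not analysed here.

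**Figure D4:**
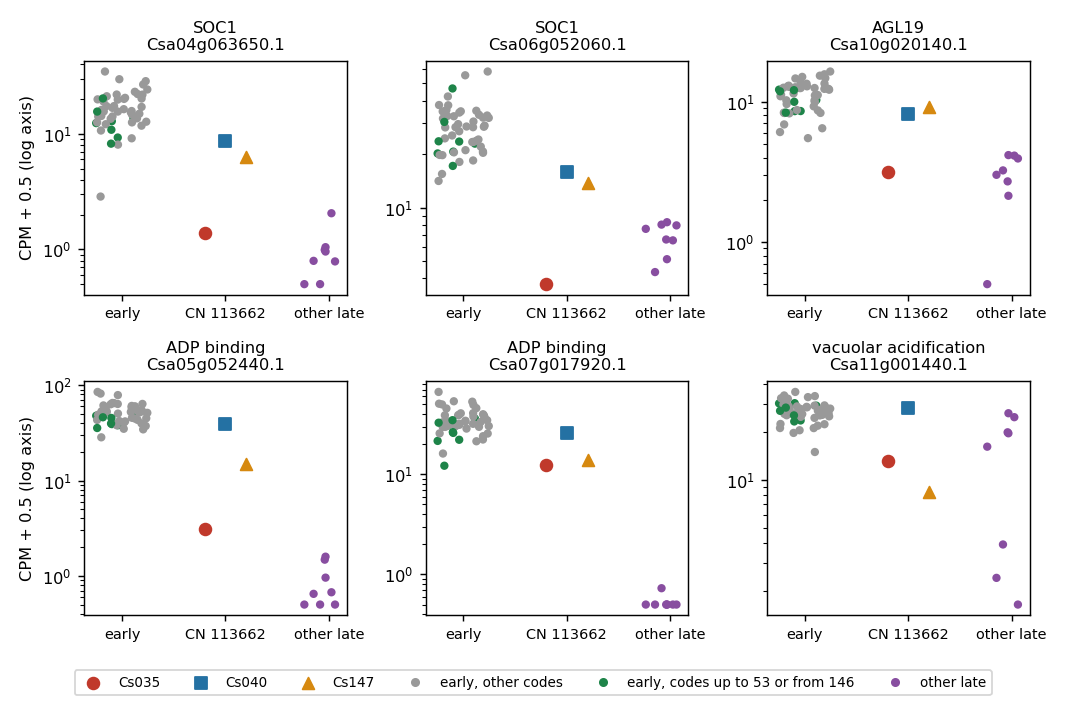
Normalized level (CPM + 0.5, log axis) of 6 gene models in every library of the early accessions, of CN 113662 and of the other late accessions, 1 point per library. Cs035 lies under or at the low end of the early points in each panel, and Cs040 lies inside the early points in each.

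Of the 4 gene models annotated by the study with ADP binding, a term that in plants often marks nucleotide-binding immune receptors, edgeR called 2 lower, where 5.28% of all gene models tested were lower, and the other 2 did not pass. Without Cs040 both calls held, and without Cs035 or against early libraries of near codes 0 members were called (2 and 1 lower at an unadjusted p under 0.05). The study found this term enriched in tan, so a lower level in a late accession is not independent evidence here either. Csa05g052440.1 had 2.63 CPM in Cs035, 38.8 in Cs040 and 14.5 in Cs147 against 27.9 to 84.6 CPM in the early libraries (median 49.9), and the other late libraries had at most 1.09 CPM. Cs040 was inside the early range, Cs147 under it, and Cs035 far under it. No library reached down to the other late accessions. The log2 fold change was -1.43 (SE 0.30, edgeR adjusted p = 0.00105), -2.47 (edgeR adjusted p = 2.99e-06) without Cs040 and -0.93 (edgeR adjusted p = 0.068) without Cs035. Csa07g017920.1 had 12, 25.2 and 13.5 CPM against 11.7 to 66 CPM (median 32.3), all inside the early range, with a log2 fold change of -1.01 (SE 0.28, edgeR adjusted p = 0.0115), or -1.41 without Cs040 (edgeR adjusted p = 0.00694), -0.83 without Cs035 (edgeR adjusted p = 0.189) and -0.63 against early libraries of near codes (edgeR adjusted p = 0.348). In the other late accessions it was nearly silent, with 1 count in 8 libraries.

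The 2 gene models annotated with vacuolar acidification, the pumping of protons into the vacuole, are neighbours on chromosome 11. Csa11g001440.1 had 12.6 CPM in Cs035, 27.9 in Cs040 and 7.91 in Cs147 against 14.4 to 35.1 CPM (median 27). Cs035 and Cs147 were under the early range and Cs040 was close to the early median. The log2 fold change was -0.73 (SE 0.18, edgeR adjusted p = 0.00525) and -1.39 (edgeR adjusted p = 4.04e-06) without Cs040. The call was lost without Cs035 (-0.59, edgeR adjusted p = 0.143) and against early libraries of near codes (-0.75, edgeR adjusted p = 0.227). Csa11g001430.2 had 4.38, 10.4 and 5.57 CPM against 3.91 to 15.5 CPM, with a log2 fold change of -0.57 (SE 0.22, edgeR adjusted p = 0.0782) that passed without Cs040 (-0.99, edgeR adjusted p = 0.0156). In both gene models Cs035 and Cs147 were lower than Cs040.

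The study grouped gene models of these libraries into co-expression modules and chose one, called tan, for its relation to FT, so that a lower level in a late accession is not independent evidence. Of the 163 gene models of tan that were tested, edgeR called 41 lower in CN 113662 and 0 higher, where it called 5.28% of all gene models tested lower. DESeq2 called 45 lower and 0 higher, against 2134 lower over all gene models. At an unadjusted p under 0.05 in edgeR, 79 were lower and 3 higher, again with no share over all gene models. The median log2 fold change of tan was -0.60 against -0.05 over all gene models tested. The libraries differed. Cs035 was under the early range at 66 of the 163, Cs147 at 26 and Cs040 at 4, and the median log2 fold changes of the libraries taken alone were -1.52, -0.61 and -0.27 in that order. No member was under the early range in all 3. Without Cs040, 48 members were lower and 1 higher, and without Cs035, 2 were lower, Csa05g025680.1 and Csa07g002580.1. Against early libraries of near codes 1 member was lower, and in the voom fit with accession as a random block 18 were. At an unadjusted p under 0.05 in edgeR, 38 were lower and 2 higher without Cs035. Against early libraries of near codes these counts were 42 and 1. The list median was -0.39 without Cs035 and -0.57 against early libraries of near codes. Csa05g025680.1 had 0.292 CPM in Cs035, 7.11 in Cs040 and 0.44 in Cs147 against 0.759 to 22.4 CPM (median 11.6). Across the 3 libraries the log2 fold change was -2.25 (SE 0.46, edgeR adjusted p = 7.05e-04). In Cs035 and Cs147 it was at the level of the other late libraries, which had at most 1.03 CPM.

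At the loci of the FT-associated SNPs of the study lie 30 gene models, of which 20 were tested, and edgeR called 3 higher and 3 lower, where 7.18% of all gene models tested were higher and 5.28% lower. The median log2 fold change of the list was 0.13 against -0.05 over all gene models tested. Voom with accession as a random block called 3 higher and 0 lower (3 lower at an unadjusted p under 0.05), and against early libraries of near codes edgeR called 0 (2 higher and 4 lower at an unadjusted p under 0.05). Csa14g006420.1 on chromosome 14, annotated as a calcium-binding tetratricopeptide protein, had 28 CPM in Cs035, 20.8 in Cs040 and 24 in Cs147 against 7.81 to 17.2 CPM (median 12.5) in the early libraries. It was the member of this list that was above the early range in all 3 libraries. That is a log2 fold change of 0.94 (SE 0.14, edgeR adjusted p = 5.3e-06), and it passed without Cs035 (0.83, edgeR adjusted p = 0.00469), without Cs040 (1.04, edgeR adjusted p = 1.85e-05) and in the voom fit (adjusted p = 1.89e-04). Against early libraries of near codes its edgeR adjusted p was 0.0528. Of the other late libraries, 11.4 CPM was the lowest and 24 CPM the highest level.

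Its neighbour Csa14g006430.1 encodes KAO1, an ent-kaurenoic acid oxidase that makes gibberellin precursors in Arabidopsis. It had 16.4 CPM in Cs035, 43.5 in Cs040 and 36 in Cs147 against 6.53 to 42.3 CPM (median 18.7), so that only Cs040 was above the early range. Its log2 fold change of 0.74 did not pass (edgeR adjusted p = 0.151). WRKY26, a transcription factor gene on chromosome 8, had 11.1, 4.1 and 5.42 CPM of Csa08g057340.1 against 0 to 5.19 CPM (median 0.913), and its log2 fold change was 2.41 (SE 0.45, edgeR adjusted p = 2.88e-04), or 1.90 without Cs035 (edgeR adjusted p = 0.0643) and 2.66 without Cs040 (edgeR adjusted p = 7.84e-04). ASG1, an abiotic stress gene, had 19.3, 32.5 and 21 CPM of Csa20g025810.1 against 5.88 to 24.1 CPM (median 11), with a log2 fold change of 1.07 (SE 0.25, edgeR adjusted p = 0.00318) and 0.80 without Cs040 (edgeR adjusted p = 0.0995). The members called lower were Csa11g040110.1 (phytoene desaturase, of carotenoid synthesis in the plastid), Csa14g006410.1 (peptidase M50 family) and Csa20g025800.1 (phosphate translocator family), with log2 fold changes from -0.74 to -0.40, and none of them was called without Cs035. Without Cs040, Csa20g025800.1 (-1.05, edgeR adjusted p = 0.00647) and Csa11g040110.1 (-0.55, edgeR adjusted p = 0.0153) stayed called. Csa14g006410.1 did not (-0.65, edgeR adjusted p = 0.0551). Phytoene desaturase was one of the leaf markers, and in whole leaves fewer cells of a type and less RNA per cell cannot be told apart.

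Each library also had gene models in which it alone left the early range. Farthest out in Cs035 were Csa12g025780.1, with no count in Cs035 but 29.5 CPM in Cs040 and 22.9 in Cs147 (early range 14.8 to 69.8), Csa09g039430.1, with 1.17, 26.2 and 33.7 CPM (early range 17.1 to 68.2), and Csa16g018070.1, with 86.2, 1.09 and 0 CPM (early range 0 to 8.17). The other late libraries ran from 0 to 27.2 CPM, from 3.21 to 15.3 CPM and from 0 to 44 CPM in these. For Csa16g018070.1 the edgeR fit over the 3 libraries gave a log2 fold change of 5.74 (SE 0.72, edgeR adjusted p = 4.04e-07) that turned to -0.22 without Cs035, so this call rests on 1 library.

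Farthest out in Cs040 was Csa12g017980.1, with 2.19 CPM against 33.9 in Cs035 and 43.5 in Cs147 (early range 10.13 to 88.5). Csa17g072860.1 had no count in Cs040 against 4.67 and 6.89 CPM, and Csa13g034570.1 had 0.273 CPM against 3.21 and 2.93 CPM. In all 3 of these, Cs040 was below every other late library and below Cs035 and Cs147. Farthest out in Cs147 were Csa01g038020.1, with 35.2 CPM against 3.21 in Cs035 and 5.19 in Cs040 (early range 0 to 5.73), Csa09g046630.1, with 13.6 CPM against 0.584 and 0.273 CPM, and Csa03153s010.1 on an unplaced scaffold, with 14.5 CPM against 2.63 and 1.64 CPM. The last stood at 7.6 to 26.3 CPM in the other late libraries, a range that Cs147 shared and Cs035 and Cs040 did not.

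The position of CN 113662 between the early and the other late accessions was read on gene models for which every other late library lay outside the early range and the higher group had a mean of 5 CPM or more, a choice that did not use CN 113662. There were 27 such gene models lower in the other late accessions and 11 higher. Of the 27, Cs035 was under the early range at 15, Cs147 at 6 and Cs040 at none. Of the 11, Cs035 was above it at 5, Cs147 at 7 and Cs040 at 1. No gene model of either set was outside in all 3 libraries.

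On a scale where 0 is the early median and 1 the other late median of log2(CPM + 0.5), Cs035 had a median position of 0.60 on the gene models lower in the other late accessions and 0.65 on those that were higher. Cs147 stood at 0.20 and 0.68, and Cs040 at 0.11 and 0.13. The early libraries ran from -0.14 to 0.13 and from -0.23 to 0.37, and the other late libraries from 0.92 to 1.04 and from 0.91 to 1.06. Cs040 was thus inside the spread of the early libraries on both sets, Cs035 between the groups on both, and Cs147 between them, the higher set showing it more. The 27 include both SOC1 copies, AGL19 on chromosome 10 and 2 of the ADP binding gene models.

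**Figure D5:**
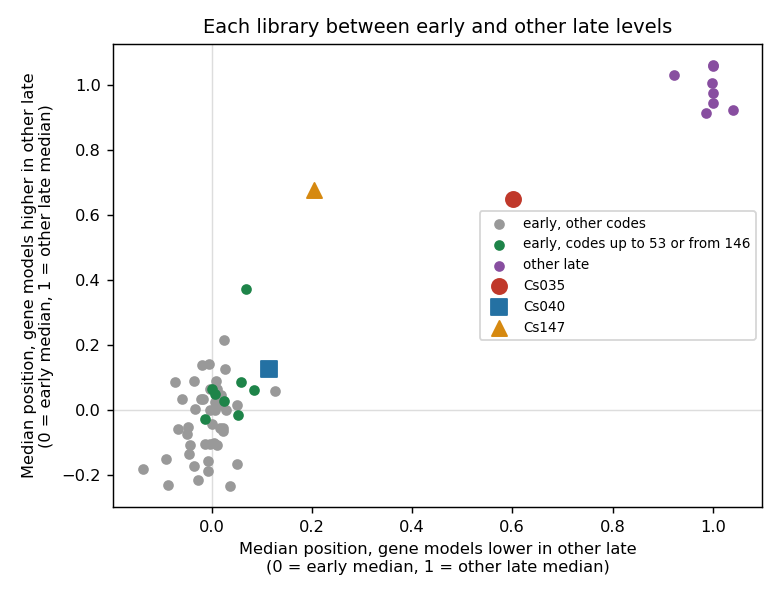
Median position of each library on 27 gene models lower in the other late accessions (x axis) and 11 higher in them (y axis), where 0 is the early median and 1 the other late median, 1 point per library. Cs035 (0.60, 0.65) and Cs147 (0.20, 0.68) lie between the groups, and Cs040 (0.11, 0.13) lies with the early libraries.

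Against the average of the other late accessions, edgeR called 554 of 45991 gene models higher in CN 113662 (1.2%) and 214 lower (0.465%). All 4 ADP binding gene models were higher, as were 4 of 12 flowering gene models (both AGL19 copies, SOC1 on chromosome 4 and SPL15) and 83 of 163 tan gene models, and 0 members of these lists were lower, also at an unadjusted p under 0.05 in edgeR and in DESeq2's test. The list medians on the log2 scale were 5.81, 0.98 and 1.73 against 0.04 over all gene models tested. The study chose tan for its negative correlation with FT in these libraries, and found ADP binding enriched in it. Low levels in the other late accessions were thus partly built into tan and into its members in the other lists. Higher levels in CN 113662 than in those accessions are therefore not independent evidence.

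SOC1 on chromosome 4 was higher by 3.51 on the log2 scale (SE 0.58, edgeR adjusted p = 6.15e-05), with every library of CN 113662 except Cs035 above every other late one. The difference was 3.06 without Cs040 (edgeR adjusted p = 0.00416) and 3.95 without Cs035 (edgeR adjusted p = 4.03e-06). For AGL19 it was 1.22 (SE 0.30, edgeR adjusted p = 0.0184) on chromosome 10, lost without Cs040 (1.10, edgeR adjusted p = 0.104) and without Cs147 (0.90, edgeR adjusted p = 0.2). Cs035 lay within the other late libraries in both gene models. SOC1 on chromosome 6 had a difference of 0.74 (SE 0.34, edgeR adjusted p = 0.248).

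Among gene models with all 3 libraries outside the range of the other late ones, the 5 largest increases include 3 with no count in any of the 8 other late libraries. Csa19g007230.1 had 23.7, 26 and 25.2 CPM in Cs035, Cs040 and Cs147, which is at least 277-fold higher than a floor of 3 counts over those 8 libraries together. Csa00717s010.1, on an unplaced scaffold, had 14.6, 29.3 and 24.2 CPM (at least 251-fold higher), and Csa19g013480.1 had 7.59, 14.2 and 7.03 CPM (at least 106.6-fold higher). The early libraries expressed all 3 at medians of 11.4, 12.7 and 22.1 CPM, and the libraries of CN 113662 lay inside the early range. The fourth was the ADP binding gene model Csa07g017920.1, with a ratio of 561 (100.7 to 22159, counting interval of its 1 count), and the fifth was Csa15g027580.1. Cs035 shared the presence of these gene models with Cs040 and Cs147.

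The largest decrease with the same property was in Csa14g007930.1, at 0.876 CPM in Cs035, 0 in Cs040 and 0.293 in Cs147 against 3.18 to 8.52 CPM in the other late libraries and 0 to 8.83 CPM in the early ones. The log2 difference from the other late accessions was -3.72 (SE 0.89, edgeR adjusted p = 0.0142). Csa17g096060.1 (0.292, 0.273 and 0.147 CPM) was under both the early and the other late libraries in all 3 libraries, with a log2 difference of -3.64 (SE 0.78, edgeR adjusted p = 0.00376) from the latter, at levels of 1 count per library.

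The calls were spread over the genome. Between 10.9 and 13.9% of the gene models tested were called against the early accessions on each of the 20 chromosomes, and the share outside the early range ran from 11.2 to 13% in Cs035, from 4.06 to 5.72% in Cs040 and from 3.46 to 5.06% in Cs147.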

How the data were processed

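Leaf RNA libraries (TruSeq) were made by the authors, who trimmed reads with Trimmomatic 0.32, aligned them with STAR 2.7.10a and counted them per gene model with featureCounts 2.0.1, per the labels. The deposited values are raw counts of transcripts, not normalized and not pooled. The strand setting and the treatment of reads that match several copies are not given in the sources used here, so near-identical copies and overlapping gene models are uncertain. Every column was tied to a library by its label, and 1 early Cs library under 200000 counts and the Licalla library were left out.

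TMM factors over the Cs libraries, filterByExpr and the quasi-likelihood test of edgeR 4.0.16 in R 4.3.3 were used, with Benjamini-Hochberg adjustment over all gene models tested (threshold 0.05). CPM are TMM-normalized, the standard error is the log2 fold change divided by the root of F, and positions used log2(CPM + 0.5). Alternatives used limma 3.58.1 and DESeq2 1.42.0. The test was tested on simulated data. The members, lists and rules were chosen with earlier results of these data known. Named gene models were the lists, the 10 largest changes per direction with all 3 libraries outside the early range and a mean of 5 CPM in the higher group, the 3 farthest out per library, and 5 per direction against the other late accessions (4 and 2 described here). The presence and absence scoring, the early libraries of near codes and the fit without Cs053 were added after seeing the data.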

Additional observations from a re-analysis of the deposited data

Results flagged for a closer look

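The flowering list held 4 gene models in which CN 113662 differed from the average of the other late accessions by a test of the difference itself (edgeR with Benjamini-Hochberg adjustment). They are SOC1 on chromosome 4, Csa04g063650.1 (3.51 on the log2 scale, edgeR adjusted p = 6.15e-05), AGL19 on chromosome 10, Csa10g020140.1 (1.22, edgeR adjusted p = 0.0184), AGL19 on chromosome 12, Csa12g033740.1 (3.61, edgeR adjusted p = 0.00897), and SPL15, Csa09g070470.1 (3.09, edgeR adjusted p = 0.0433). SOC1 stayed past the threshold with each library of CN 113662 left out (edgeR adjusted p from 4.03e-06 to 0.00416). It did not pass against CN 113692 alone (edgeR adjusted p = 0.118), where the difference was of like size (3.63) and the library Cs008 had 646716 counts. AGL19 on chromosome 10 lost it against each other late accession alone (edgeR adjusted p from 0.0574 to 0.356), with differences from 1.17 to 1.32. The copy on chromosome 12 lost it without Cs147 (edgeR adjusted p = 0.166). It also lost it against CN 113691 or CN 113692 alone (edgeR adjusted p = 0.26 and 0.46). SPL15 lost it with any library of CN 113662 left out, and the other late libraries held 6 counts of it in all, as they did of the AGL19 copy on chromosome 12. All 4 gene models belong to tan, so low levels in the other late accessions were partly built into the list.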

How the results depend on the processing

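No paired analysis was possible because the labels give no replicate numbers. Against the early accessions, the count of higher gene models (3290) was 636 to 2350 with 1 library of CN 113662 left out, and that of lower ones (2421) was 151 to 1495. Single libraries gave 1411 higher and 698 lower (Cs035), 9 and 4 (Cs040) and 96 and 35 (Cs147). Counts summed per accession gave 50 and 10, early libraries of near codes 93 and 10, and Cs046 and Cs048 alone 3 and 0, with 4554 gene models at an unadjusted p under 0.05 in that edgeR fit. Fewer libraries enter these fits, and what else lowers the counts was not tested. Early libraries of all code series gave 1178 lower, and voom with an accession block 445 lower. DESeq2's test, its size factors, no filter, the deepest library per accession, no minimum total, the robust fit, the early libraries without Cs053 and the other late libraries in the fit stayed within 1.5 times, except as named.

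Against the other late accessions, the counts (554 higher, 214 lower) were 300 to 454 and 54 to 90 with 1 library left out. CN 113691 alone gave 324 higher, CN 113692 alone 171 and 32, CN 113660 alone 436 lower, no filter 129 lower and DESeq2's test 330 lower.

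Above the early range, Cs035, Cs040 and Cs147 had 2855, 1082 and 1245 gene models, 1664, 256 and 328 with early libraries of all code series, and 8346, 5725 and 5418 with those of near codes. Below it they had 2737, 1172 and 700, 764, 142 and 110 with all code series, 9766, 7089 and 4840 with near codes, and 6, 3 and 2 with no minimum total, where a library of few counts sets the range at 0. Of 56 named gene models tested against the early accessions, 31 lost their call with early libraries of near codes, 9 with voom and 0 without Cs053. The 56 include gene models without a call in the main fit, which had none to lose. Among these were 9 of the 12 flowering gene models tested, 2 of the 4 for ADP binding and 1 of the 2 for vacuolar acidification. The log2 fold change of Csa11g001440.1 reversed with Cs040 alone (0.076). The depth limits low gene models: 1 count is 0.292 CPM in Cs035 and 0.147 CPM in Cs147.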

Other observations

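Among the early libraries, Cs143 and Cs082 deviated more from the early range than Cs035 did. The former (CAM 260) was above the other early libraries at 3541 gene models and below at 8968, and the latter (CAM 219) at 4834 and 2703. Cs143 had too few counts to be among the deep libraries scored for presence and absence, whereas Cs082 was among them. How far the low depth of Cs143 accounts for its numbers was not tested. Both libraries were kept among the 51 early libraries and so enter the early range.

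Other labels also shared presence and absence patterns. Libraries labelled CN 113721 and CN 113706 were in opposite states at 0 of 171 to 0 of 180 scored gene models in 4 pairs, and Cs062 (CN 113716) and S001C48 (CN 114262) at 1 of 110.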
